A study of Mus musculus with 6 samples.

Results

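Dense clusters of accessible regions far from gene starts were located in chromatin of skeletal stem and progenitor cells (SSPCs) from young and middle-aged mice. Their members were chosen by where peaks had been called in every library. A peak call is itself a threshold on pileup over background, so a region that missed the call in 1 library could not become a member. Peaks of the 6 libraries were merged where they overlapped by at least 1 bp, which gave 63840 regions, of which 22403 were called in all 6 libraries. Of these, 12031 lay more than 1 kb from every protein-coding transcription start site (TSS) and are called distal shared regions below. Joining distal shared regions across gaps of at most 12500 bp gave 9594 stitched units, and the 35 units with 5 or more regions are the clusters described here. They held 189 regions, 1.57% of the distal shared regions. ATAC-seq, in which a transposase cuts accessible DNA and inserts sequencing adapters, had been run on cells grown out of tibial and femoral marrow of C57BL/6 mice and used at passage one without treatment. Each age was represented by 3 libraries, and the mice were about 12 weeks (young) or 52 weeks (middle-aged) old. The series describes cells from at least 3 mice without saying which went into which library, so that p-values measure only the spread between these libraries. The cultures were not sorted, and a change in the share of 1 cell type cannot be told apart from a change of chromatin within cells.

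Enhancers are stretches of DNA outside promoters that bind transcription factors and raise transcription of a gene on the same chromosome, often over many kilobases. Where a factor binds, nucleosomes are displaced and the transposase cuts more often. Groups of closely spaced enhancers are known from genes with a strong role in the identity or the inducible responses of a cell, and joining neighbouring accessible sites is a common way to list candidates. Accessibility alone does not show enhancer activity, and the gene with the nearest start is used below as a name for a cluster and not as its target.

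The lists held 35953, 43941 and 27628 peaks in young libraries 1 to 3 and 46364, 46745 and 48344 in middle-aged libraries 1 to 3. The shortest list, young 3, therefore weighed most on which regions counted as shared. The label of the cells was checked by peaks within 1 kb of the TSS of marker genes. Of 20 stromal markers 5 (Kitl, Ebf3, Foxc1, Nt5e and Twist1) had such a peak in all 6 libraries and 6, Lepr among them, had none in any library. Of 15 myeloid markers 13 had a peak in all 6, among them Ptprc, Spi1, Adgre1 and Cx3cr1, and all 10 housekeeping genes did. The myeloid marker Csf1r had one in 2 young and 0 middle-aged libraries, and Cebpe in none. A peak in all 6 was found for 8 of 12 adipogenic and 6 of 15 osteogenic markers. The counts were 3 of 12 for other blood and 1 of 8 for endothelial markers. Of all 21842 protein-coding gene names 48.3% had such a peak in all 6 libraries and 38.5% in none. The share of stromal markers with a peak in all 6 was thus below that of all genes, and the share of myeloid markers above it. Osteogenic, other blood and endothelial markers were also below it, and adipogenic markers above it. Which cells of the cultures the clusters belong to was not tested.

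The sequences below show what the most accessible windows of the clusters looked like. For each of 7 clusters the summit of its highest region and 100 bp on either side are given, 5′ to 3′ on the plus strand of build mm10. The first 3 were picked for their motif matches, the Cebpb and Cx3cr1 clusters are named for marker genes, and the last 2 stood apart from the rest in ways described further on. Capitals mark motif matches on either strand, and the Cx3cr1 window held none.
Hmox1 cluster region 4, chr8:75083889-75084089: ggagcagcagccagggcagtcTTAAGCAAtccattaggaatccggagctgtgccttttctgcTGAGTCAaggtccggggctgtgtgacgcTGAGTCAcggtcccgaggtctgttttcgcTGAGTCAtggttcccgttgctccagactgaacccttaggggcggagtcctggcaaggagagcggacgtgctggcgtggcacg
Tnip3 cluster region 1, chr6:65585471-65585671: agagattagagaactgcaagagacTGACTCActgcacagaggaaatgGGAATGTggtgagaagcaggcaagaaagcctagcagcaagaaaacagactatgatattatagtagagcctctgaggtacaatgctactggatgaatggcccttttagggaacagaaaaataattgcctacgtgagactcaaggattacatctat
Gm826 cluster region 4, chr2:160225475-160225675: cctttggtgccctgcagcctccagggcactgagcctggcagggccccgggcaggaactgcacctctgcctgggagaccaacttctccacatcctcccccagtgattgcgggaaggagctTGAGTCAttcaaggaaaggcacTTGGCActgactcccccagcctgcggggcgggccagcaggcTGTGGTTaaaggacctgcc
Cebpb cluster region 2, chr2:167760049-167760249: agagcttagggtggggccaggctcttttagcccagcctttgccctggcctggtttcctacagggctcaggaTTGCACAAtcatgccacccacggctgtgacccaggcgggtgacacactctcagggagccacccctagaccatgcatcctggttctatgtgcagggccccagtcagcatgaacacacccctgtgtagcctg
Cx3cr1 cluster region 1, chr9:120037445-120037645: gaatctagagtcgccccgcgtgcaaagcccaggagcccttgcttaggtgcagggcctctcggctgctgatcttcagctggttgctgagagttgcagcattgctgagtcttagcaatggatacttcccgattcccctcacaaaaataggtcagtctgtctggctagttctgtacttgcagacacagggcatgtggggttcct
Sfi1 cluster region 1, chr11:3123841-3124041: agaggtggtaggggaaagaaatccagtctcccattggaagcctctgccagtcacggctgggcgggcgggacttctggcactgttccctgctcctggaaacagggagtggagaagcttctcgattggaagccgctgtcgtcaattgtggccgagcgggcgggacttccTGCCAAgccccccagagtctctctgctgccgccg
Abt1 cluster region 3, chr13:23432631-23432831: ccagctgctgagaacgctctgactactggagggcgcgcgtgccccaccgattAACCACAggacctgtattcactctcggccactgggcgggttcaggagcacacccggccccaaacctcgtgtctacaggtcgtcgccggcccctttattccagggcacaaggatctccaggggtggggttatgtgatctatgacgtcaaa
The Hmox1 window held the AP-1 letters TGANTCA in 3 places and the C/EBP letters TTGCNNAA once, and the Tnip3 window held AP-1 and TEAD (ACATTCC) once each. In the Gm826 window AP-1, RUNX (TGTGGTT) and an NFI half-site (TTGGCA) matched once each. The Cebpb window matched C/EBP only, the Sfi1 window the NFI half-site and the Abt1 window RUNX.

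The number of stitched units fell steeply with size. Of the 9594 units 7783 held 1 region, 1366 held 2, 313 held 3 and 97 held 4. Above the threshold 23 units held 5 regions, 11 held 6 and 1 held 8. Just outside the threshold, units of 4 spanned 5222 to 33708 bp (median 17938), and just inside it units of 5 spanned 13951 to 35395 bp (median 23795). The clusters formed the thin upper end of a continuous distribution, and their number moved with the settings of the rule. A gap of 5 kb left 3 clusters (Cdkn2aipnl, Actr3 and Ctsd) and a gap of 25 kb gave 140. Without young 3, the shortest list, 88 clusters were found, and every one of the 35 overlapped a cluster of that set. When all lists were cut to the length of the shortest, 8 remained, led by Ier5, Gm826, Gpr183, Tnfrsf1b (proximal), Fli1, Cebpb, Cx3cr1 and Chd9.

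**Figure D1:**
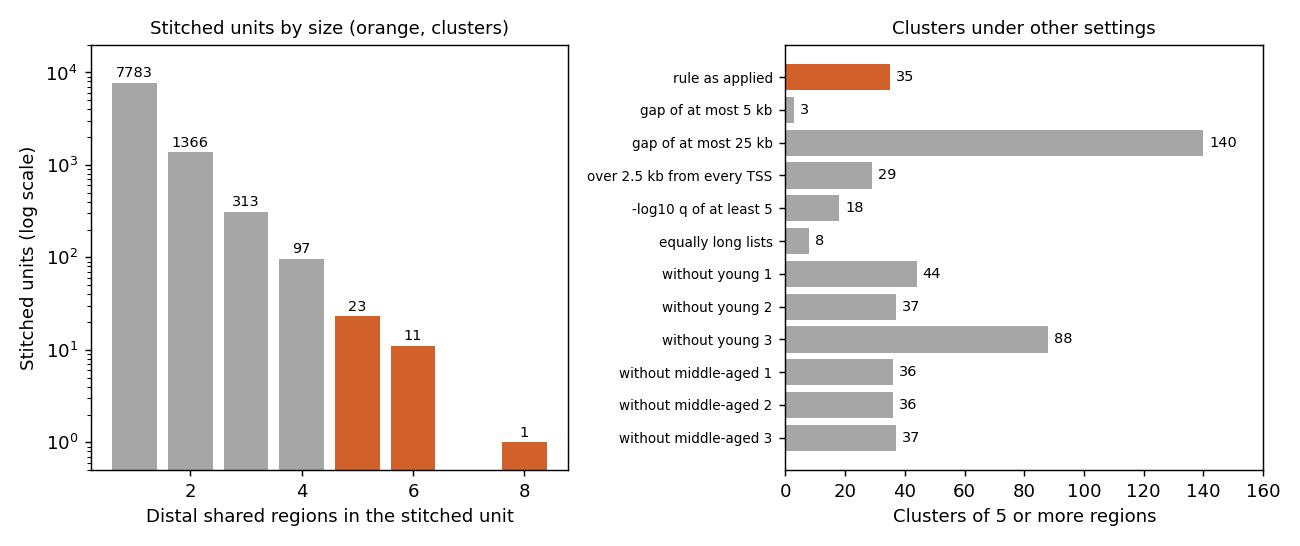
Left, number of stitched units (log scale) by the number of distal shared regions they hold, with the 35 clusters of 5 or more in orange. Right, number of clusters under the rule as applied (35) and under other settings, from 3 at a 5 kb gap to 140 at a 25 kb gap, with 88 when young 3 was left out.

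Together the clusters spanned 949275 bp on 17 chromosomes, with none on chromosomes 10, 12, 19 and Y. A cluster spanned a median of 25369 bp, from 13951 bp (Ctsd) to 46513 bp (Irak2). Its accessible regions covered a median of 10.7% of that span, from 5.63% (Il21r) to 16.6% (Ctsd), so each cluster was a series of short separate sites. Member regions had a median width of 456 bp, against 457 bp for the other 11842 distal shared regions and 706.5 bp for shared regions within 1 kb of a TSS. By their middle base, 89 of the 189 members lay in introns, 10 in exons and 90 between genes (47.1%, 5.29% and 47.6%). The other distal shared regions were divided much the same way, with 45.0% in introns, 4.26% in exons and 50.7% between genes.

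**Figure D2:**
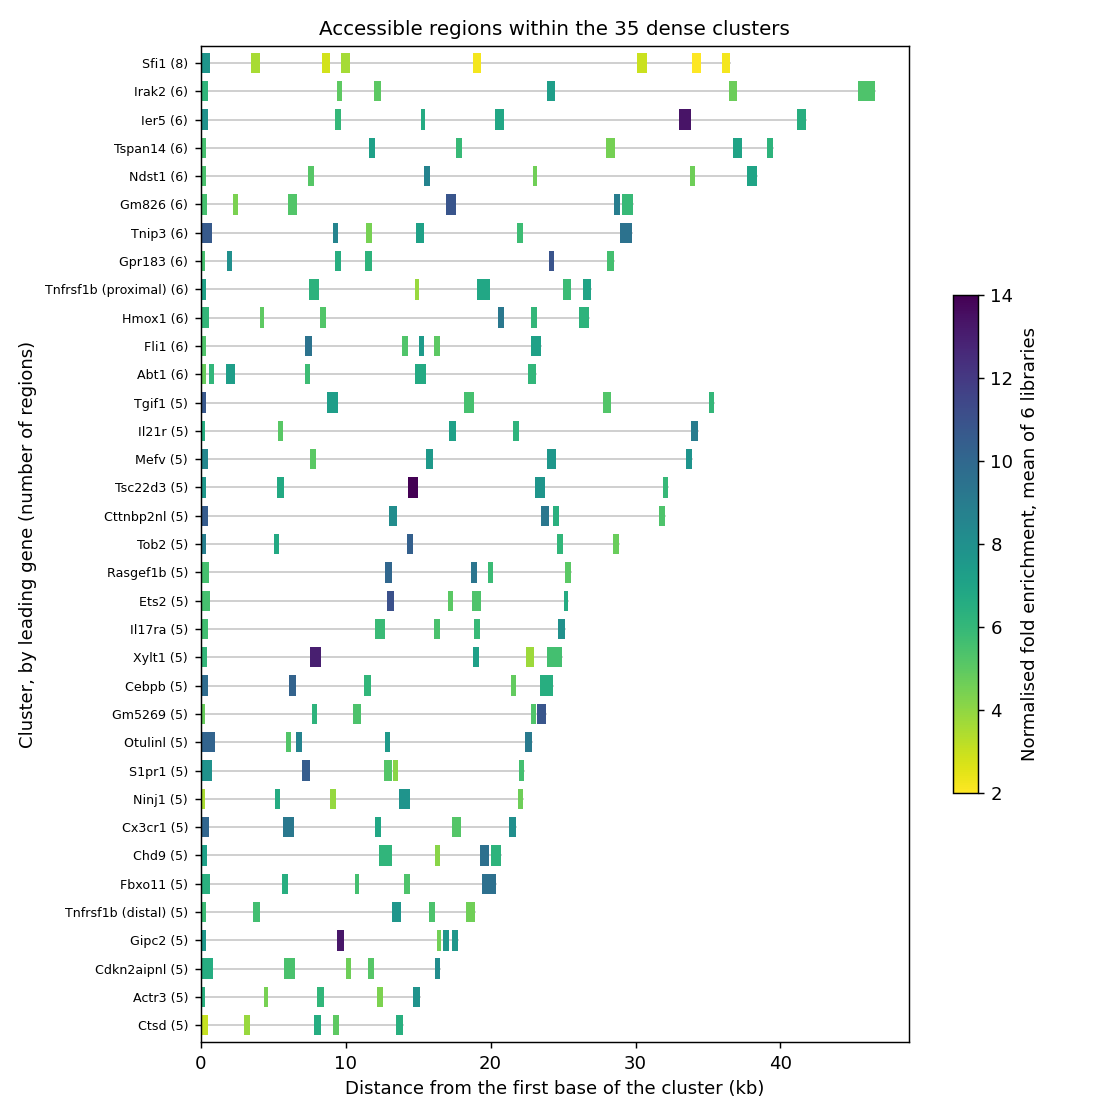
Position of each accessible region (bars, drawn to scale) in the 35 clusters as distance from the first base of the cluster in kb, with colour giving the quantile-normalised fold enrichment averaged over 6 libraries. Spans run from 13951 bp (Ctsd) to 46513 bp (Irak2), the highest regions lie in the Tsc22d3, Ier5, Gipc2 and Xylt1 clusters, and most regions of the Sfi1 cluster are the lowest of all.

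Clusters were named by the protein-coding gene whose TSS was nearest to the largest number of their regions. In the Irak2 and Ndst1 clusters another gene, Tatdn2 and Rps14, was nearest to as many, and the smaller summed distance decided the name. This gene held all nearest starts in 23 clusters. In 8 clusters a protein-coding TSS lay within the span, 17 lay downstream and 10 upstream of the start of the leading gene. Within 25 kb of that start lay 24 of the 35, and those named for Rasgef1b (110014 bp) and Ets2 (108161 bp) were the farthest away. Members of the Rasgef1b cluster lay inside the annotated gene body, in introns and 1 exon, although far from its nearest protein-coding start. Of the 34 leading genes 24 (70.6%) had a peak at their own TSS in all 6 libraries and 3 (Gm5269, Gm826 and Mefv) in none. Of the 5908 genes nearest to any distal shared region 62.7% had a TSS peak in all 6, and of all 21842 protein-coding gene names 48.3%.

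Several leading genes belong to signalling by cytokines and by danger signals. These names were grouped after they were seen, and no theme was tested. The Irak2 cluster (chr6:113644754-113691266) was named for a kinase of the interleukin-1 and Toll-like receptor pathway. It had 6 regions, by their middle base 5 in introns and 1 in an exon of Irak2. Of these, 3 were nearest to Irak2 and the others to Tatdn2. Tnfrsf1b, a receptor for tumour necrosis factor, was flanked by a pair of clusters. The proximal one (chr4:145214381-145241328, 6 regions) lay downstream of its start, mostly in its introns, and the distal one (chr4:145254378-145273291, 5 regions) upstream, partly in the neighbouring gene Tnfrsf8. A gap of 13049 bp separated the pair, just over the stitching distance, and together they held 11 regions in 58911 bp. The Tnip3 cluster (chr6:65585055-65614845), named for a gene whose product binds the NF-kappaB inhibitor A20, spanned its TSS and held 6 regions in its body. Clusters of 5 regions spanned the starts of the cytokine receptor genes Il17ra and Il21r and of Mefv, which encodes the inflammasome protein pyrin.

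Other clusters were named for transcription factors and for genes of the stress response. The Fli1 cluster (chr9:32493633-32517123) had all 6 regions in introns of Fli1, an ETS factor of blood and endothelium. The Cebpb cluster (chr2:167753844-167778120) lay between genes, 64929 bp downstream of the start of Cebpb, a factor of myeloid and early fat cell differentiation, and held 5 regions. The Ets2 and Tgif1 clusters had 5 regions each, those of Tgif1 within introns of Dlgap1. The Hmox1 cluster (chr8:75063244-75090044) lay upstream of Hmox1, the haem-degrading enzyme induced by oxidative stress, with 6 regions, of which 2 were in introns of Tom1. Its region 4, whose sequence with 3 AP-1 matches is shown above, lay 9439 bp before the Hmox1 start. Upstream enhancers of Hmox1 with repeated sites of this kind, which also bind the oxidative stress factor NRF2 with small Maf proteins, are known from mouse cells. The Ier5 cluster (chr1:155050160-155091891), named for an immediate early response gene, had 6 regions between genes, and region 5 lay within 1 kb of the start of the non-coding gene Gm9530.

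Receptor genes and genes of other kinds led further clusters. The Gpr183 cluster (chr14:121985513-122013999), named for an oxysterol receptor that guides immune cells, had 6 regions in introns of Ubac2. The Cx3cr1 cluster (chr9:120037347-120059131), named for the fractalkine receptor of monocytes and macrophages, had 5 regions within the Cx3cr1 gene, 9152 bp or more from its nearest start. The Tspan14 cluster (chr14:40919522-40958987), named for a tetraspanin, had 6 regions in Tspan14 introns. Regions 5 and 6 of that cluster overlapped a RefSeq element at chr14:40955282-40959325 that is annotated as a VISTA enhancer, a sequence assayed in transgenic mouse embryos. No other member overlapped any of the 3158 RefSeq functional elements on the chromosomes used. The Gm826 cluster (chr2:160208299-160238119, 6 regions) lay between genes, 75497 bp from the start of its leading gene. The Ndst1 cluster, on chromosome 18, spanned the starts of Ndst1 and Rps14 with 6 intronic regions.

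Lists of marker genes were compared with the clusters. Of 12 adipogenic genes 1 (Cebpb) and of 15 myeloid genes 1 (Cx3cr1) led a cluster or had a TSS within one. None of the 20 stromal, 15 osteogenic, 12 other blood, 8 endothelial, 17 Notch pathway, 14 AP-1 and TEAD, 11 matrix and contractile and 10 housekeeping genes did. Over all protein-coding gene names the share was 0.160%, or 35 names, and 1 gene of a list is too few to read anything from.

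A pair of clusters differed from the rest in what their regions were. All 6 regions of the Abt1 cluster (chr13:23430784-23453911) lay within 1 kb of a tRNA gene of the RefSeq annotation, and no region of any other cluster did. Regions 2, 3, 4, 5 and 6 overlapped genes for tRNA-Ala, tRNA-Tyr, tRNA-Ile, tRNA-Val and tRNA-Leu, and region 1 lay beside the same tRNA-Ala gene as region 2. Among other distal shared regions 73 (0.616%) lay within 1 kb of 1 of the 403 tRNA genes. The rule removed only starts of protein-coding genes, so promoters of tRNA genes, which RNA polymerase III transcribes, counted as distal. Starts of annotated non-coding genes lay within 1 kb of 10 members (5.29%) and of 581 other distal shared regions (4.91%).

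The Sfi1 cluster (chr11:3123560-3160087), the only one of 8 regions, stood apart in its background. Peak height is given below as fold enrichment, the pileup at the summit over the local background of the peak caller, with 1 added to each. In the Sfi1 cluster this height was the lowest of the 35, with a mean of 3.08 over 6 libraries against a median of 6.44 over clusters. Its pileup over the genome-wide background was the highest, at 51.0. The local background plus 1 was about 16.6 times the genome-wide background (16.2 to 17.1 by library). The next highest such ratio, in the Chd9 cluster, was 3.29. At 3 of the 8 Sfi1 summits the central 31 bases occurred at 2 places in the genome, against 1 of the 181 members of other clusters (in the Abt1 cluster, 10 places) and 1.06% of the other distal shared regions. Whether reads of further copies were placed in the Sfi1 cluster was not tested.

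Motifs were counted in windows of 100 bp on either side of the summits, by exact match of the letters on both strands. AP-1 (TGANTCA) matched in 43 members (22.8%) spread over 29 clusters, in 22.2% of other distal shared regions and in 3.60% of shared regions at a TSS. ETS (GAGGAAGT) matched in 13.8%, 12.9% and 2.90% of these 3 classes, RUNX (TGTGGTT) in 13.2%, 10.8% and 2.09%, and C/EBP (TTGCNNAA) in 12.7%, 14.1% and 4.77%. By these 4 motifs the clusters looked like the other distal regions and unlike promoters. For EBF (CCCNNGGG) the 3 shares were 11.1%, 6.68% and 14.3%. Members without the Sfi1 cluster were at 10.5%, so members lay between the other classes. NFI half-sites (TTGGCA) matched in 9.52%, 12.03% and 6.13%. TEAD (ACATTCC), RBPJ (GTGGGAA) and the CTCF core (AGGGGGC) each matched in 5 members (2.65%), in 3.14%, 4.69% and 4.36% of other distal shared regions and in 1.11%, 3.51% and 13.99% of regions at a TSS, where G and C make up a median of 66.2% of bases against 51.2% in members and 49.8% in other distal shared regions. The most AP-1 windows in 1 cluster were 3, in the Hmox1, Tgif1 and Fbxo11 clusters.

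**Figure D3:**
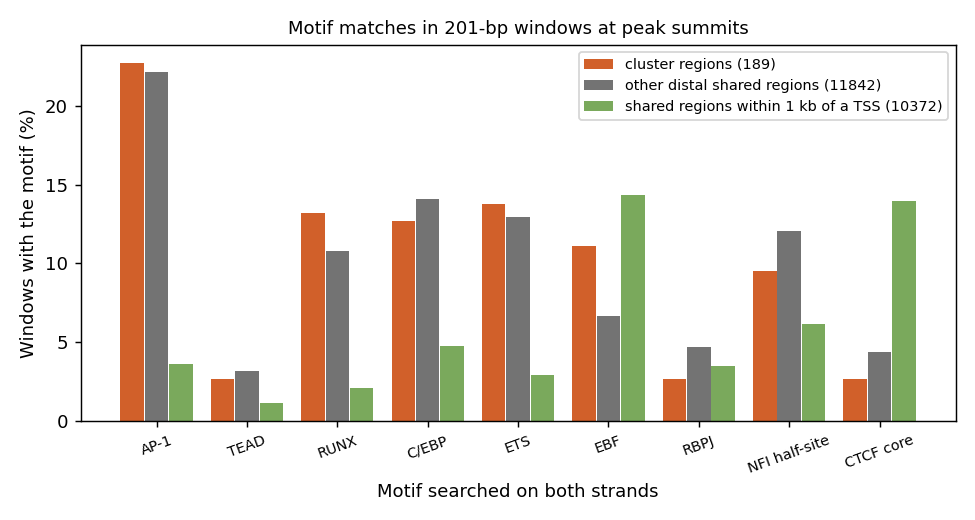
Share of summit windows (%) with a match of each motif on either strand, for the 189 cluster regions (orange), the other distal shared regions (grey) and shared regions within 1 kb of a TSS (green). AP-1 matched in 22.8% of cluster regions, 22.2% of other distal regions and 3.60% of regions at a TSS.

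Members were not the highest of the distal regions. Their median fold enrichment was 5.59, 6.38 and 5.90 in young libraries 1 to 3 and 6.76, 6.56 and 6.63 in middle-aged libraries 1 to 3, below that of the other distal shared regions in 6 of 6 libraries (6.15, 7.55, 6.57, 7.73, 7.94 and 7.71). By rank within each list the classes were closer. The mean percentile rank of members by −log10 q ran from 46.2 (young 3) to 64.5 (middle-aged 3), and that of the other distal shared regions from 46.7 to 64.8 in the same libraries. After quantile normalisation of the log2 values over all shared regions, the median height was 7.22 in stitched units of 1 region, 7.001 in units of 4, 6.54 in units of 5 and 6.18 in units of 6. This height also depends on the local background. The local background plus 1, over the genome-wide background, had a median of about 2.12 in members and 1.83 in all shared regions. Pileup over the genome-wide background had a median of 13.3 in members and 15.1 in all shared regions.

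Within a cluster the highest region was a median of 1.98 times the lowest, from 1.46 times (Il17ra) to 3.91 times (Sfi1). The highest members were region 3 of the Tsc22d3 cluster (14.4), region 5 of the Ier5 cluster (13.4) and region 2 of the Gipc2 cluster (13.3). In the Ier5 cluster this region stood well above the lowest, region 2, at 6.01. In the Hmox1 cluster region 4, with the AP-1 repeats, was the highest at 9.18 and region 2 the lowest at 4.997. The Cebpb cluster had its highest region at 10.2 (region 2) and its lowest at 4.88 (region 4), and regions 1 and 2 both held a C/EBP match.

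The question of whether the clusters changed between young and middle-aged mice was put to peak height, which the choice of members had used only as the threshold for a call in each library. Before normalisation the median log2 fold enrichment over all shared regions was 2.84, 3.11 and 2.88 in young libraries 1 to 3 and 3.17, 3.19 and 3.17 in middle-aged libraries 1 to 3. Thus all regions were shifted upward by a median of 0.21 on the log2 scale, and changes are given relative to that shift, after quantile normalisation. The height of a cluster was the mean log2 height of its regions in each library. limma was fitted over all 22403 shared regions and over all 9594 stitched units, with Benjamini-Hochberg adjustment over each.

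No cluster passed an adjusted p of 0.05 in limma in either direction. At an unadjusted p under 0.05 the count was also 0, where 3.42% of all stitched units were higher and 4.28% lower. In each of 13 alternative fits 0 clusters were called. At an unadjusted p under 0.05, 1 cluster was lower with centring, with pileup over the genome-wide background and without the variance trend, and 4 were lower with units weighted by their number of regions. The share of all stitched units at that p was not counted in these fits, so these counts say nothing particular about the clusters. At an adjusted p under 0.05 the alternative fits called at most 2 of all stitched units higher, without young 2, and 0 lower. In the fit reported here 0% of all stitched units were called higher and 0% lower in middle-aged mice. No member region passed either, where 0.00446% of all shared regions were called higher and 0% lower. At an unadjusted p under 0.05, 4 members (2.12%) were higher and 7 (3.70%) lower, against 4.28% and 3.43% of all shared regions. With heights taken over the genome-wide background, 1 member was called lower, region 8 of the Sfi1 cluster (log2 difference −0.58, adjusted p = 0.0182 in limma), whose difference over the local background was −0.02. In that fit 0.00446% of all shared regions were called higher and 0.0312% lower. Intervals were wide, with a median width of 0.61 on the log2 scale, and all 35 spanned 0. They ran down to −0.57 and up to 0.40, so differences beyond these bounds were outside every cluster's 95% interval, and differences within an interval were not resolved with 3 libraries a group.

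**Figure D4:**
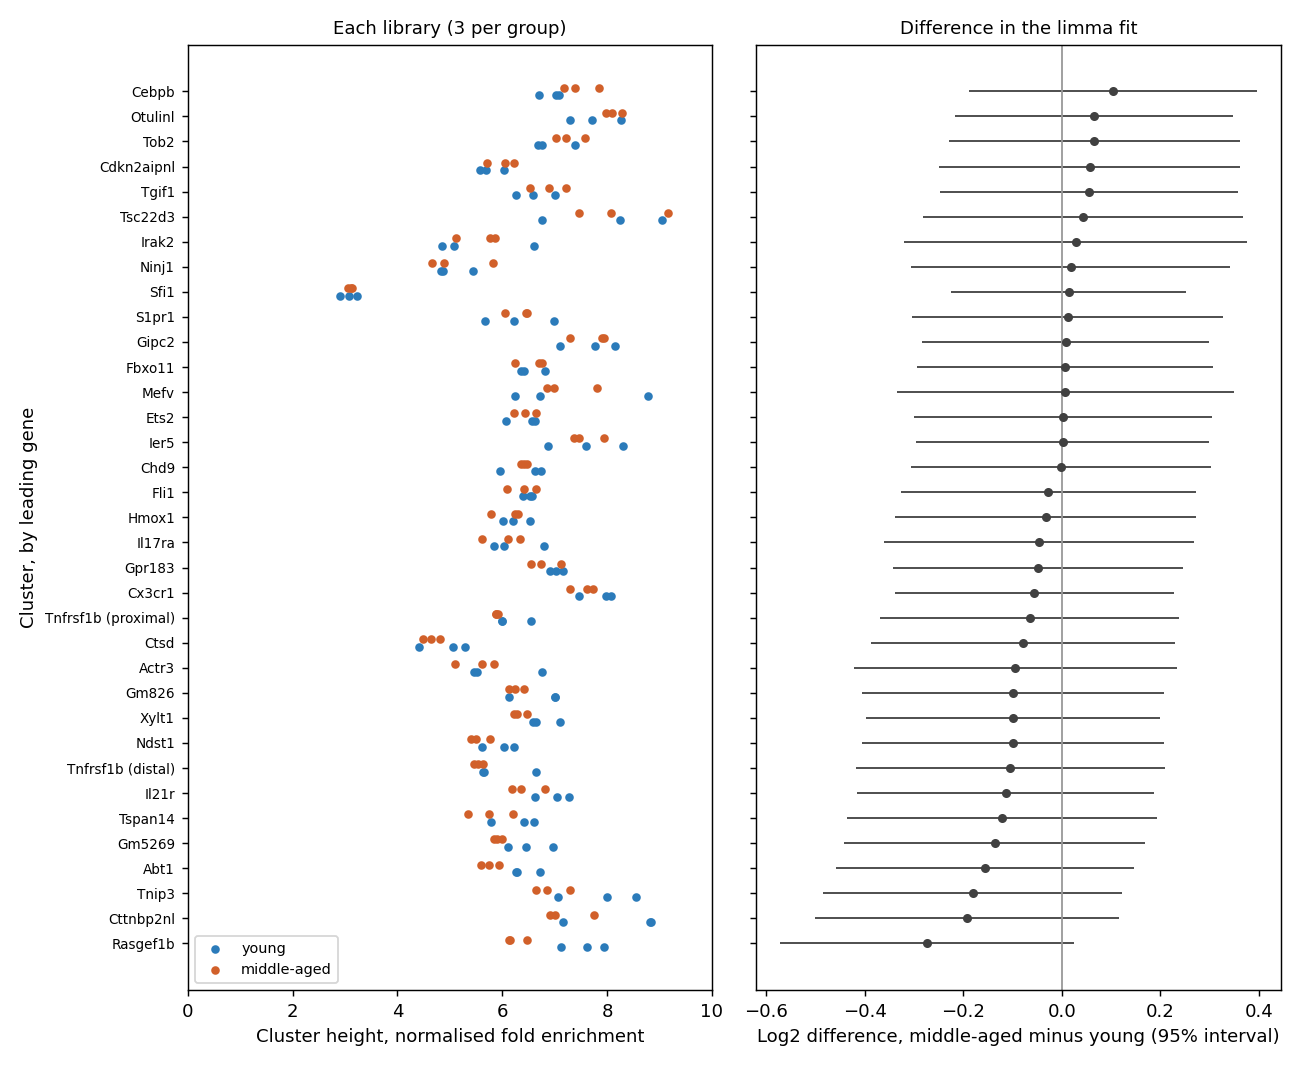
Left, height of each cluster (normalised fold enrichment, linear axis from 0) in the 3 young (blue) and 3 middle-aged (orange) libraries. Right, log2 difference between middle-aged and young with its 95% interval from limma, sorted from Cebpb (0.10) to Rasgef1b (−0.27), where every interval crosses 0.

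The Rasgef1b cluster had the lowest difference. Its height was 7.13, 7.95 and 7.62 in young libraries 1 to 3 and 6.16, 6.12 and 6.48 in middle-aged libraries 1 to 3. Every middle-aged value was below every young value. The means were 7.56 ± 0.41 and 6.25 ± 0.20 (SD, n = 3 each), a log2 difference of −0.27 (95% interval −0.57 to 0.02, adjusted p = 0.660 in limma). All 5 of its regions had negative differences. Without any 1 library the difference stayed between −0.32 and −0.24, and without normalisation it was −0.07. In that setting 34 of the 35 clusters had positive differences, Rasgef1b being the exception, beside the upward shift of 0.21 over all shared regions.

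The Cebpb cluster had the highest difference. Its height was 7.03, 6.71 and 7.08 in young libraries 1 to 3 and 7.38, 7.17 and 7.84 in middle-aged libraries 1 to 3. Here each middle-aged value exceeded each young value, by little. The means were 6.94 ± 0.21 and 7.46 ± 0.34 (SD, n = 3 each), a log2 difference of 0.10 (95% interval −0.19 to 0.40, adjusted p = 0.899 in limma), and 4 of 5 regions had positive differences. Without normalisation its difference was 0.31.

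Groups without overlap were counted over all clusters. In 1 cluster (Cebpb, 2.86%) all middle-aged values were above all young values, and in 5 (14.3%) they were below. These 5 were Rasgef1b, Abt1, Gm5269, Xylt1 and Tnfrsf1b (proximal). The shares over all stitched units were 5.14% and 8.02%. Among members 6 (3.17%) had middle-aged values above and 17 (8.99%) below all young values, against 6.26% and 6.91% of all shared regions. With 35 clusters, 1 cluster more or less moves such a share by 2.86 points.

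The tRNA cluster named for Abt1 had a height of 6.72, 6.26 and 6.27 in young libraries 1 to 3 and 5.74, 5.60 and 5.93 in middle-aged libraries 1 to 3. All middle-aged values were lower, with a log2 difference of −0.16 (95% interval −0.46 to 0.15, adjusted p = 0.836 in limma). The Cttnbp2nl cluster was at 8.83, 7.16 and 8.83 in young libraries and at 7.74, 6.90 and 7.01 in middle-aged libraries. Its groups overlapped through young 2, and the log2 difference was −0.19 (95% interval −0.50 to 0.12). The Tnip3 cluster was at 7.99, 7.06 and 8.56 in young and at 6.64, 7.29 and 6.85 in middle-aged libraries, a log2 difference of −0.18 (95% interval −0.48 to 0.12). All 6 Tnip3 regions had negative differences, but the groups overlapped, again through young 2. Without normalisation the differences of these 3 clusters turned slightly positive, to 0.04 (Abt1), 0.03 (Cttnbp2nl) and 0.03 (Tnip3).

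At the upper end the Otulinl cluster was at 7.72, 7.30 and 8.27 in young libraries and at 8.09, 7.98 and 8.29 in middle-aged libraries (log2 difference 0.07, 95% interval −0.22 to 0.35). The Tob2 cluster, named for an antiproliferative protein, was at 6.75, 7.39 and 6.69 in young and at 7.02, 7.21 and 7.58 in middle-aged libraries (0.07, −0.23 to 0.36). Its regions did not move as 1, since regions 1 and 5 had positive differences and the other 3 negative ones. The Cdkn2aipnl cluster was at 5.57, 6.03 and 5.69 in young and at 6.05, 5.72 and 6.22 in middle-aged libraries (0.06, −0.25 to 0.36). In all 3 of these clusters the groups overlapped.

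The remaining large clusters and that of Cx3cr1 had differences between −0.12 and 0.03. The Sfi1 cluster was at 3.23, 3.07 and 2.91 in young libraries and at 3.12, 3.05 and 3.13 in middle-aged libraries (log2 difference 0.01, 95% interval −0.22 to 0.25). The Hmox1 cluster was at 6.02, 6.20 and 6.53 in young and at 6.25, 6.30 and 5.78 in middle-aged libraries (−0.03, −0.34 to 0.27). The Cx3cr1 cluster was at 7.99, 7.46 and 8.08 in young and at 7.30, 7.61 and 7.72 in middle-aged libraries (−0.06, −0.34 to 0.23). The groups overlapped in all 3. Means of 7.59 ± 0.71 in young and 7.59 ± 0.31 in middle-aged libraries were nearly equal for the Ier5 cluster (SD, n = 3 each), and those of the Irak2 cluster were 5.51 ± 0.95 and 5.58 ± 0.41. The Fli1 cluster was at 6.50 ± 0.09 and 6.38 ± 0.27, and the Gpr183 cluster at 7.03 ± 0.12 and 6.80 ± 0.29. The log2 differences of these 4 lay between −0.05 and 0.03. The Tspan14 (−0.12), Ndst1 (−0.10), Gm826 (−0.10) and Tnfrsf1b (proximal, −0.06) clusters had lower means in middle-aged libraries, and in all but the last the groups overlapped.

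Single regions can differ more than clusters, whose heights average their regions, and none of those listed here was called. The members chosen here are those at an unadjusted p under 0.05 with no overlap of the groups, named after their values were seen. Region 1 of the Tgif1 cluster, whose window held 2 AP-1 matches and 1 RUNX match, was at 9.79, 10.1 and 9.02 in young libraries 1 to 3 and at 11.4, 13.4 and 11.4 in middle-aged libraries 1 to 3 (log2 difference 0.32, adjusted p = 0.542 in limma). Region 1 of the Tob2 cluster was at 8.42, 8.68 and 6.37 in young and at 9.55, 9.76 and 11.1 in middle-aged libraries (0.38, adjusted p = 0.573). In both the middle-aged values were all higher. Region 5 of the Gm5269 cluster was at 13.0, 9.98 and 14.5 in young and at 8.81, 9.67 and 9.96 in middle-aged libraries (−0.38, adjusted p = 0.539 in limma). Region 4 of the Abt1 cluster, at the tRNA-Ile gene, was at 6.17, 7.09 and 6.70 in young and at 5.18, 5.37 and 4.58 in middle-aged libraries (−0.40, adjusted p = 0.592). The central 31 bases at its summit occurred at 10 places in the genome, and whether reads of other copies were placed there was not tested. Region 4 of the Ndst1 cluster was at 5.73, 4.77 and 5.38 in young and at 3.50, 4.46 and 4.07 in middle-aged libraries (−0.40, adjusted p = 0.578). In these regions the middle-aged values were all lower, and the same held for region 1 of the Il21r cluster (−0.40, adjusted p = 0.608 in limma).

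Over the 189 members the median log2 difference was −0.05, with 70 positive and 119 negative (63.0% negative). Over the other distal shared regions it was −0.02 with 55.0% negative, and over all shared regions 0.00 with 50.5% negative. Without the Sfi1 and Abt1 clusters the median of the remaining 175 members was −0.05. The direction rested on the scaling. Without normalisation the median over members was 0.14, with 148 positive and 41 negative, and that over all shared regions 0.21. By percentile rank members rose by a median of 7.93 points, with 163 positive and 26 negative, and all shared regions by 6.74 points. Relative to all shared regions, the change of members from young to middle-aged was therefore a little lower in log2 height under both scalings. In rank the change was a little higher, by 1.19 points, with no test of either.

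The number of peaks inside the cluster spans was nearly the same in all libraries. More than 1 kb from every TSS, young libraries 1 to 3 had 213, 217 and 205 peaks in the spans and middle-aged libraries 1 to 3 had 220, 218 and 224. Every middle-aged value was above every young value. The means were 212 ± 6.11 and 221 ± 3.06 (SD, n = 3 each), a ratio of 1.04, where all peaks over 1 kb from a TSS gave 1.44. The members are in all 6 lists by the rule, which holds the first ratio near 1. With lists of equal length it was 0.938. The accessible length in the spans was 78.2 ± 8.93 kb in young and 87.6 ± 0.979 kb in middle-aged libraries.

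**Figure D5:**
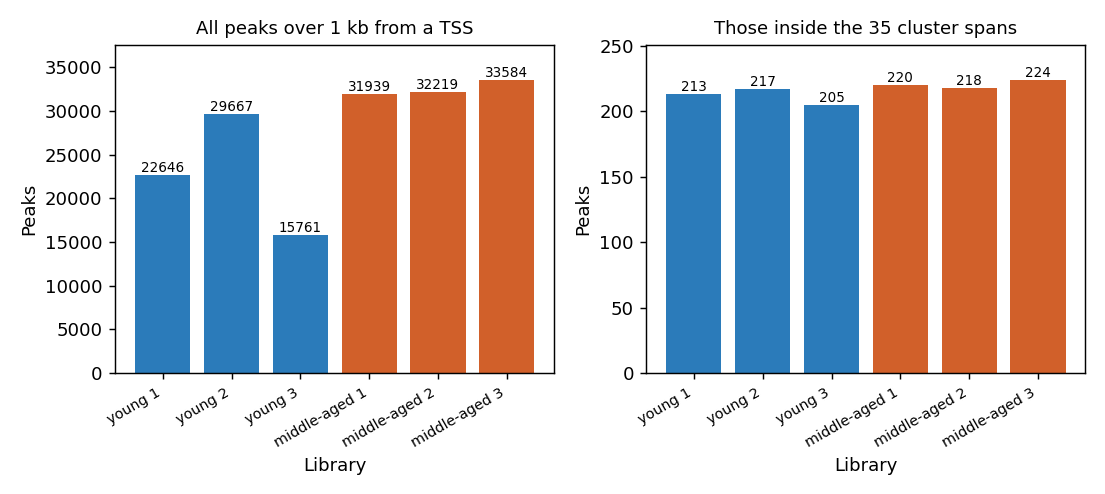
Number of peaks over 1 kb from every protein-coding TSS in each library, for the whole list (left) and inside the 35 cluster spans (right), both from 0. Whole lists run from 15761 (young 3) to 33584 (middle-aged 3), while the spans hold between 205 and 224 peaks in every library.

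Besides the members, the spans held 49 regions over 1 kb from a TSS that were not called in all 6 libraries, which the rule had left out. They were called 21, 25 and 13 times in young libraries 1 to 3 and 28, 25 and 31 times in middle-aged libraries 1 to 3. In 28 of the 49 (57.1%) more middle-aged than young libraries had the region, and in 9 (18.4%) more young libraries did. Among all 35690 such regions of the genome the shares were 72.8% and 13.8%. Missing from young 3 alone were 7 (14.3%, against 12.2% of all such regions), and 1, in the Irak2 cluster, was called in the 3 middle-aged libraries and in no young one (2.04%, against 3.47%). The length of the peak list moved with these counts, and its part in them was not tested.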

How the data were processed

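The files held ATAC-seq peaks of 6 libraries of cultured SSPCs, 3 young and 3 middle-aged. According to their methods, the authors made reads with bcl2fastq, mapped them to mm10 with Bowtie2, discarded duplicates with Sambamba and ran MACS on each library, so replicates have lists of their own. The deposited fold enrichment is a linear ratio of the summit pileup over the caller's local background, taken with 1 added to each. The score deposited by the authors restates their −log10 q, and the deposited −log10 p and −log10 q values are per peak within a library. The summit offset deposited with each peak located the summit. Summit pileup and local background were inferred from the fold enrichment and −log10 p of each peak. The genome-wide background of a library was taken as a low quantile of these local backgrounds. It was 3.75, 2.83 and 1.65 in young libraries 1 to 3 and 2.54, 2.40 and 2.79 in middle-aged libraries 1 to 3. The lists give no read depth, so the spread between libraries sets the precision.

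Protein-coding starts came from GENCODE release M21 (mm10), sequences and tRNA genes from RefSeq's mm10 assembly. In each library a region took its peak of highest fold enrichment. Log2 values were quantile-normalised and compared with limma 3.58.1 (eBayes with variance trend) in R 4.3.3, over all shared regions or stitched units. No further pseudocount was added. Members of a cluster are not replicates and were averaged within a library. limma was first tested on simulated data of 22403 regions, where it called 36 and 39 of 50 regions changed by 1 and −1 on the log2 scale and 4 and 2 of 50 changed by 0.5 and −0.5. Equal replicate numbers did not pair the libraries (correlations of 0.00496, 0.0121 and −0.0277).

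Members, gene lists and motifs were chosen with earlier results of these data known. Clusters named in the text are the 12 with most regions, those whose leading gene is on a marker list, and the 4 highest and 4 lowest by moderated t, and any other was named after its values were seen. Windows were printed for clusters of the first 2 kinds, none from chromosome 18. Alternatives were gap, TSS distance, −log10 q, list length, scaling, rank, variance trend, replicate block and leaving out each library. Weighting units by their number of regions was added after seeing the data. The differential test of the authors needs reads and was not repeated.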

Additional observations from a re-analysis of the deposited data

How the results depend on the processing

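The number of clusters depended most on the settings. It was 3 with a gap of 5 kb, 140 with 25 kb, 18 with peaks at a −log10 q of at least 5 and 8 with equally long lists, and 36 to 88 when 1 library was left out, with 88 without young 3 and 44 without young 1. With 2.5 kb in place of 1 kb to the TSS it was 29. No cluster was called in any fit, in either direction, and the smallest adjusted p over clusters lay between 0.322 and 0.852. No member was called higher in any fit, and 1 was called lower, only with summit pileup over the genome-wide background. The median log2 difference over members was −0.094 with centring, 0.14 without normalisation and 7.93 points by percentile rank, the last 2 of opposite sign to the −0.05 reported, and it lay between −0.080 and −0.030 when 1 library was left out. With the replicate block, which treats equal replicate numbers as paired although they did not pair the libraries, the median was −0.05, 0 clusters and 0 members were called, and the ratio of peaks in the spans was 1.04. That ratio was 1.08 at a −log10 q of at least 5 and 0.938 with equally long lists, which turned its direction, and 1.03 to 1.06 without 1 library. The cause of these changes was not tested. With 3 libraries a group and no read depth, differences within a cluster's 95% interval could not be resolved.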
